A study of Saccharomyces cerevisiae with 8 samples.

Results

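The genes described here lie nearest the chromosome ends of budding yeast. For each of the 32 chromosome arms, the 8 plain systematic names with the highest gene numbers on the array were taken, which gave 256 names. Of these, 20 were then dropped by gene family (PHO, MAL, IMA, HXT, ARN and a few single genes that belong to other pathways), which left 236 of the 6576 systematic names on the array. Position 1 is the name closest to the end and position 8 the innermost, in gene order only, with no distance in bases. The rule uses gene order and family names and no measured value, and it was written with earlier results of these data known. A RefSeq symbol was found for 136 of the 236, another 65 were in RefSeq under their systematic name only, and 35 were not in the RefSeq table used.

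RNA from Saccharomyces cerevisiae of 3 genotypes was measured on 8 one-colour Agilent arrays. Δire1 (3 arrays) lacks IRE1, the endoplasmic reticulum stress sensor that starts the unfolded protein response. SSZ1OEΔire1 (2 arrays) also overexpresses SSZ1, an Hsp70-like protein of the ribosome-associated complex, and SSZ1OEΔire1Δscj1 (3 arrays) further lacks SCJ1, a J-domain co-chaperone of the endoplasmic reticulum. All 3 genotypes therefore carry the IRE1 deletion, and no IRE1+ strain is among them; cultures grew at 30 °C in synthetic medium and were harvested in early log phase. The promoter that drives SSZ1 is not given in the sources used here, and each array has a source code of its own, so whether replicates are separate clones or separate cultures of 1 strain is not known and p-values measure the spread between these samples.

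Chromosome ends in yeast carry repeated X and Y′ elements and large families of near-identical genes that are few or single elsewhere in the genome. Genes close to the telomere can be held down by the Sir2, Sir3 and Sir4 proteins, which Rap1 and the Ku proteins recruit, and over a wider zone by histone deacetylases such as Hda1. Many end-proximal families serve particular conditions, among them anaerobic cell walls (PAU), thiamine synthesis (THI5 family), the use of uncommon sugars and alcohols, and resistance to metals and drugs.

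The genotype labels were checked first. SSZ1 signal was 2.87 ± 0.16 (log2 difference ± SE) higher in SSZ1OEΔire1 and 2.40 ± 0.15 higher in SSZ1OEΔire1Δscj1 than in Δire1, with adjusted p = 0.000668 and 0.00018 in limma. SCJ1 was well above background on every array of the other 2 genotypes and on none of SSZ1OEΔire1Δscj1, at least 317-fold below Δire1. IRE1 was well above background on none of the 8 arrays. The share of non-control spots read as well above background ran from 90.5% to 95.9% per array. Δire1 replicate 2 stood apart from replicates 1 and 3, with a median absolute log2 difference of 0.21 and 0.20 against 0.056 between the other 2. Both SSZ1OEΔire1 arrays and Δire1 replicates 1 and 2 lay in slide row 1, and Δire1 replicate 3 and all SSZ1OEΔire1Δscj1 arrays in row 2. The median signal of negative-control spots was 3.55 to 5.05 in row 1 and 9.49 to 14.4 in row 2, and its part in the results for dim genes was not tested. Values below are log2 of the signal over the 75th percentile of the same array, and a gene was tested if its probe was well above background on every array of at least 1 genotype, which 210 of the 236 were.

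End-proximal genes were called higher than in Δire1 in both SSZ1-overexpressing genotypes more often than all names were, and called lower less often in share. In SSZ1OEΔire1 against Δire1, limma called 38 of 210 higher (18.1%, adjusted p under 0.05), where the share over all 6240 tested names was 7.52%, and 3 lower (1.43%, against 3.91% of all). Largest among the higher calls were the open reading frames YOL160W, YFR054C, YJL218W, YGR293C, YAL065C and YBR300C. The sorbitol dehydrogenase genes SOR1 and SOR2, HSP33 and SNO4 of the Hsp31 family, and the thiamine gene THI13 came next. YFR054C, YGR293C, YAL065C and YBR300C were well above background on no Δire1 array. The median log2 difference was 0.06 for the end-proximal genes and 0.03 for all tested names, so the typical gene near an end was close to the rest and the calls lay in a subset. Without SSZ1OEΔire1 replicate 2 the count of higher genes fell to 3, and over all names to 48, and without Δire1 replicate 3 it was 24. Without Δire1 replicate 2 it was 39 (18.6%), where the share over all names rose to 14.7%, so the distance between the end-proximal genes and the rest rested in part on that array. Under quantile normalization the median was -0.02 and the split was 29 higher (13.8%, against 5.54% of all) and 14 lower (6.67%, against 6.03%). Within slide row 1 alone all 41 called genes had the same direction, and 9 higher genes were called.

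In SSZ1OEΔire1Δscj1 against Δire1, 94 of 210 end-proximal genes were called higher (44.8%, against 21.4% of all tested names) and 7 lower (3.33%, against 16.9% of all). The median log2 difference was 0.35 against 0.02 for all names, and 150 of the 210 genes lay above 0. The calls took in every measured PAU gene, 7 of 10 COS genes, all measured thiamine and vitamin B6 genes, and YFR057W, the gene next to the right end of chromosome VI. Within slide row 2, which holds all 3 SSZ1OEΔire1Δscj1 arrays and Δire1 replicate 3, all 101 called genes kept their direction, the median was 0.36 and 59 genes were called higher and 3 lower. Without Δire1 replicate 2 the share of higher calls was 45.2%, against 27.2% of all names. Copies of near-identical families count here as separate genes. Without the COS, PAU, YRF1, AAD, FLO, THI, SNO and SNZ families, 61 of 161 genes were called higher (37.9%) and 7 lower (4.35%). The median of those 161 genes was 0.27. Under quantile normalization the split was 74 higher and 23 lower (945 and 1381 over all names), and the median fell to 0.16 against -0.06 for all names. Scaling to the 7 spike-in probes moved the median of all tested names to 0.43 in this comparison, and that of the end-proximal genes to 0.76.

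SSZ1OEΔire1Δscj1 against SSZ1OEΔire1 bears on what the loss of SCJ1 adds. It shares its SSZ1OEΔire1Δscj1 arrays with the comparison above and its SSZ1OEΔire1 arrays with the first. Higher calls numbered 32 of 210 (15.2%, against 6.3% of all tested names) and lower calls 7 (3.33%, against 5.61% of all), with a median of 0.23 against 0.00. The higher genes were led by PUG1, TOG1 and YER187W on the right arm of chromosome V, the THI5-family genes and COS1. The 2 genotypes share no slide row, so a row term in the fit rests on the Δire1 arrays alone. With the row as a block none of the 39 calls remained in limma (1 higher call over all names), while the median was 0.27, all 39 kept their direction and 49 genes had an unadjusted p under 0.05. None was called without SSZ1OEΔire1 replicate 1 either (52 at an unadjusted p under 0.05), 7 without SSZ1OEΔire1Δscj1 replicate 1 and 19 without its replicate 2. The 7 were 4 higher (1.9%, against 1.12% of all names) and 3 lower (1.43%, against 0.913%). The 19 were 11 higher (5.24%, against 2.34%) and 8 lower (3.81%, against 2.02%), so lower calls were no longer scarcer than over all names. These limits hold for each call given below in this comparison.

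Array by array, the median deviation of the 210 genes from their Δire1 mean was 0.07, -0.03 and -0.02 on the Δire1 arrays. It was 0.03 and 0.12 on the SSZ1OEΔire1 arrays and 0.31, 0.42 and 0.23 on the SSZ1OEΔire1Δscj1 arrays. The 3 arrays of the last genotype lay above all 5 others, and the SSZ1OEΔire1 arrays overlapped Δire1 at the lower of their values. Over all tested names the 8 medians stayed between -0.03 and 0.03.

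**Figure D1:**
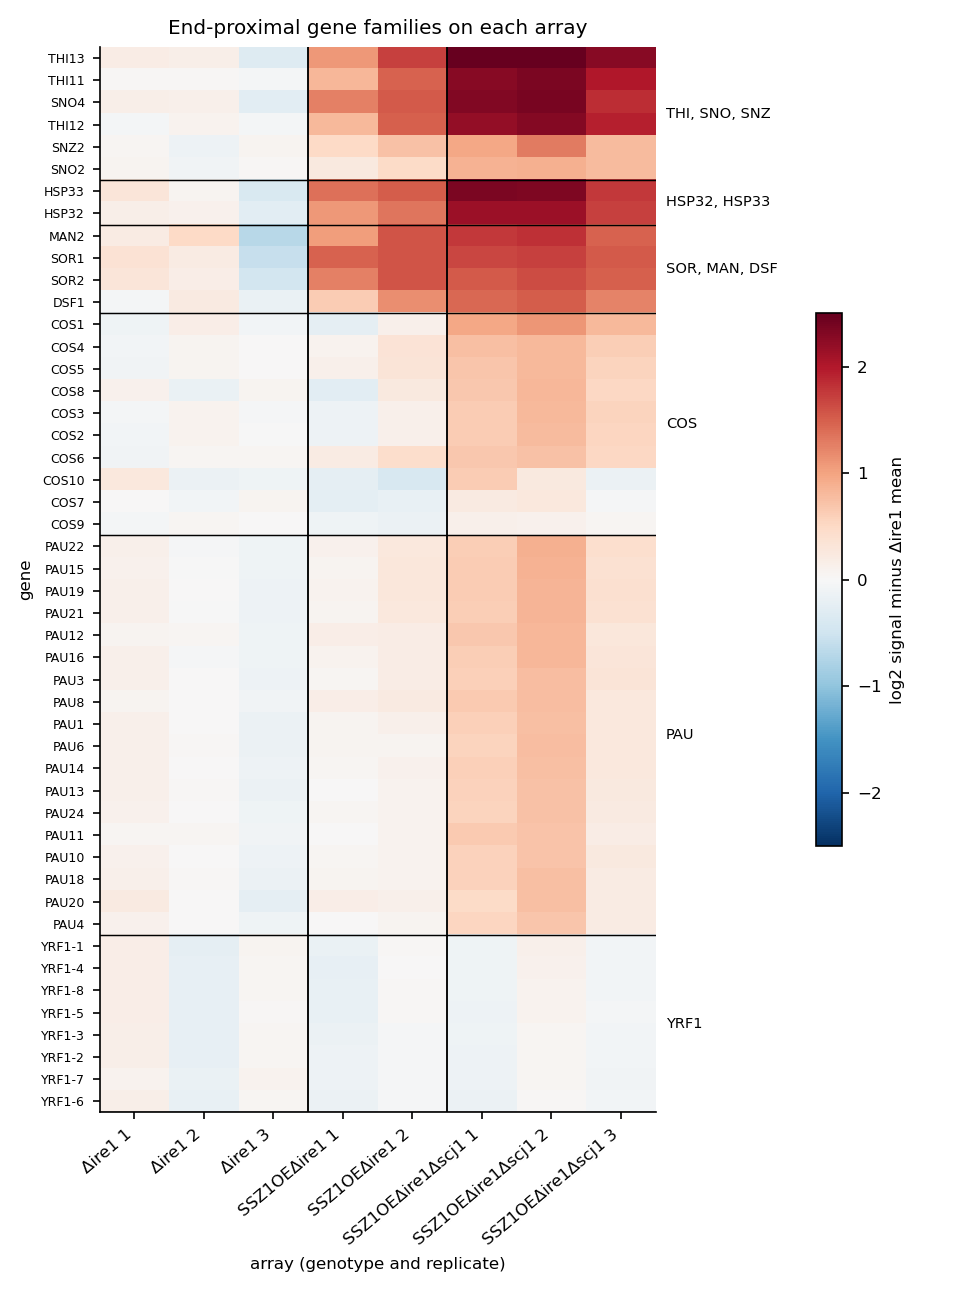
Heat map of the log2 signal of 48 tested end-proximal genes minus the gene's Δire1 mean (colour, capped at 2.5 in either direction) on each of the 8 arrays (columns, by genotype and replicate). The THI, SNO, SNZ, HSP32, HSP33 and SOR rows are red in both SSZ1-overexpressing genotypes, the COS and PAU rows mainly in SSZ1OEΔire1Δscj1, and the YRF1 rows stay pale throughout.

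End-proximal genes were dim on these arrays, and dim genes in general were called higher more often, so the shares were also read against other genes of like signal. With the 6240 tested names split by mean signal into 10 classes of equal size, class 1 the dimmest, 96 of the 210 genes lay in classes 1 and 2. Weighted to the signal of the end-proximal genes, the other genes would give 10%, 25.5% and 6.69% higher in the 3 comparisons in the order above, and 3.35%, 11.8% and 4.60% lower. The observed 18.1%, 44.8% and 15.2% higher exceeded each of these shares. In SSZ1OEΔire1 against Δire1 the excess lay mostly in classes 1 and 2, where 28 of 96 end-proximal genes (29.2%) and 14.4% of 1152 others were higher, against 9 of 70 (12.9%) and 6.31% of the others in classes 3 to 6. In SSZ1OEΔire1Δscj1 against Δire1 it was widest in classes 3 to 6, with 42 of 70 end-proximal genes (60.0%) against 25.1% of 2426 others, and medians of 0.51 and 0.07. In the brightest 4 classes 9 of 44 were higher (20.5%, against 11.8% of the other genes) and 4 lower (9.09%, against 30.0%). These shares describe the arrays and were not tested. A dim gene can enter the test through the 1 genotype in which it is high, so the counts over dim genes give no support of their own. Of the 189 end-proximal genes well above background on all 8 arrays, 25 were higher in SSZ1OEΔire1 against Δire1 (13.2%, against 6.92% of all such names), with a median of 0.02. For SSZ1OEΔire1Δscj1 against Δire1 the count was 79 (41.8%, against 21.1%), and 31 in SSZ1OEΔire1Δscj1 against SSZ1OEΔire1 (16.4%, against 6.39%).

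**Figure D2:**
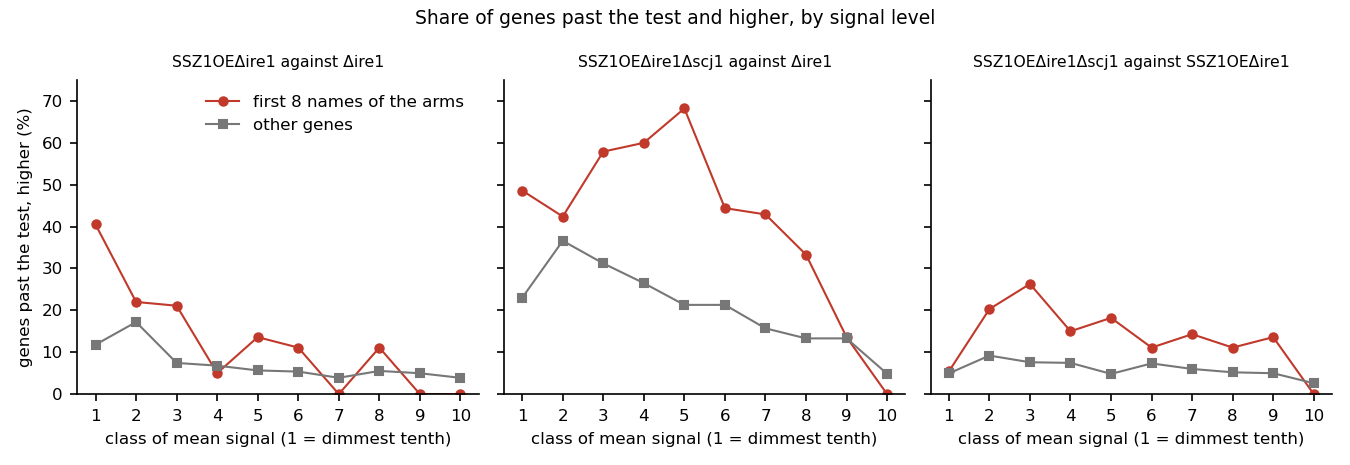
Percent of tested genes called higher (y axis) by class of mean signal from dimmest to brightest (x axis), for the 210 end-proximal genes (red circles) and all other tested names (grey squares), in 1 panel per comparison. In SSZ1OEΔire1Δscj1 against Δire1 the red points lie above the grey ones in classes 1 to 9, by little in class 9, and in SSZ1OEΔire1 against Δire1 the gap is widest in class 1.

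The share of higher calls was not steady along the first 8 names, with copies of near-identical families counted as separate genes. In SSZ1OEΔire1Δscj1 against Δire1, 40.4% of the genes at positions 1 and 2 were called higher, 59.6% at positions 3 and 4, 40.4% at 5 and 6 and 40.7% at 7 and 8. The share was 30.3% at positions 9 to 16, 16.9% at 17 to 24 and 20.1% farther in. No gene at positions 1 to 4 was called lower in any comparison, where 3.91%, 16.9% and 5.61% of all names were. At positions 7 and 8, 9.26% were called lower in SSZ1OEΔire1Δscj1 against SSZ1OEΔire1, against 5.61% of all names. In SSZ1OEΔire1 against Δire1 the outermost genes gave the lowest share within the first 8. At positions 1 and 2 it was 3.51% (2 of 57, median -0.02), under the 7.52% of all names, and 27.7% followed at positions 3 and 4. At the border of the choice, 21.4% of the genes at position 8 and 7.14% of those at position 9 were higher in SSZ1OEΔire1 against Δire1, with medians of 0.09 and 0.03. The shares were 35.7% and 25% in SSZ1OEΔire1Δscj1 against Δire1 (medians 0.10 and 0.07), and against SSZ1OEΔire1 3 of 28 genes were higher at each position (medians 0.12 and 0.00). Left and right arms were alike, with 50 of 106 and 44 of 104 higher in SSZ1OEΔire1Δscj1 against Δire1.

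**Figure D3:**
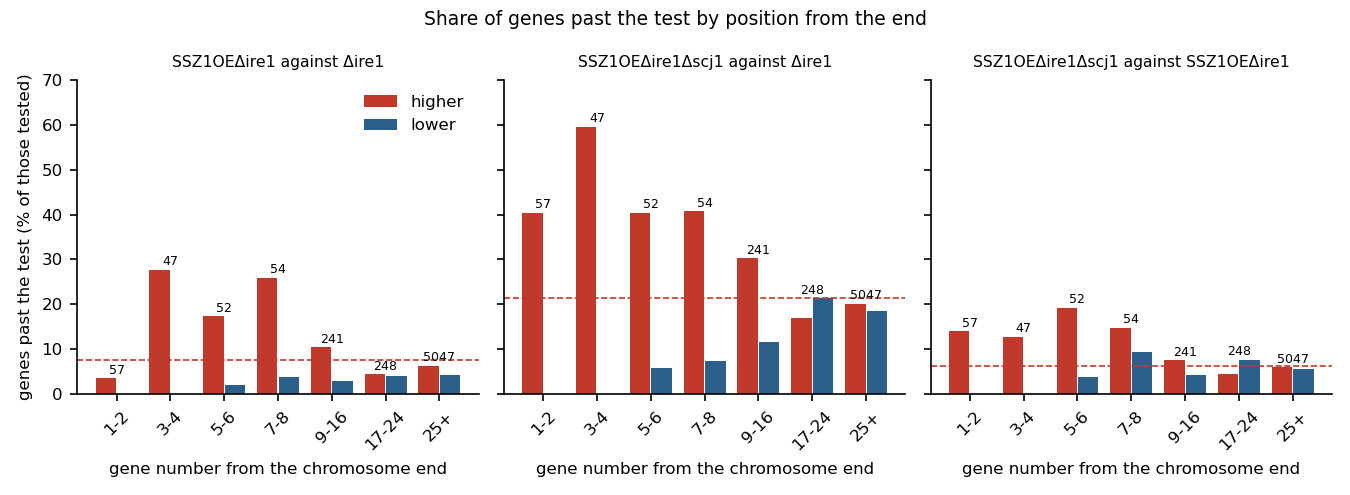
Percent of tested genes called higher (red bars) and lower (blue bars) by gene number from the chromosome end, in 1 panel per comparison, with the number tested above each pair and the share called higher over all tested names as a dashed line. In SSZ1OEΔire1Δscj1 against Δire1 the red bars stand at 40.4% to 59.6% within the first 8 positions and at 16.9% to 30.3% farther in.

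The genes of thiamine and vitamin B6 synthesis near the ends rose in both SSZ1-overexpressing genotypes. THI11, THI12 and THI13 belong to the THI5 family, whose enzymes make the pyrimidine precursor of thiamine, and SNZ2 and SNO2 encode homologues of the pyridoxal phosphate synthase subunits. THI11 on the right arm of chromosome X measured -5.20, -5.21 and -5.28 in Δire1, -4.40 and -3.77 in SSZ1OEΔire1, and -2.96, -2.88 and -3.23 in SSZ1OEΔire1Δscj1. The 3 genotypes did not overlap and lay in the order of the number of alterations. The differences from Δire1 were 1.15 ± 0.18 (2.22-fold, adjusted p = 0.0113 in limma) and 2.21 ± 0.16 (4.61-fold, adjusted p = 0.000437), and SSZ1OEΔire1Δscj1 exceeded SSZ1OEΔire1 by 1.05 ± 0.18 (adjusted p = 0.0183). THI12 on chromosome XIV gave nearly the same differences, 1.15 and 2.15, and THI13 on chromosome IV the larger ones of 1.39 and 2.57. SNZ2 was 0.61 ± 0.16 and 1.01 ± 0.14 higher, and SNO2 0.37 ± 0.10 and 0.84 ± 0.09. With SNO4, described next, these are the 6 measured genes of the group as listed. In SSZ1OEΔire1 against Δire1 none of the 6 was called without SSZ1OEΔire1 replicate 2 and 1 within slide row 1 alone. In SSZ1OEΔire1Δscj1 against Δire1, 5 were called within slide row 2 alone, and under the other alternatives all that were tested were called. THI5 itself, farther in on chromosome VI and so outside the choice, measured 1.09 and 2.12 higher, and the 4 THI5-family genes are near-identical, so their probes may read the same transcripts.

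Genes of the same pathways away from the ends were called about as often as all names in SSZ1OEΔire1Δscj1 against Δire1. Of 14 listed, 2 were called higher and none lower in SSZ1OEΔire1 against Δire1 by limma, and 4 higher and 2 lower in SSZ1OEΔire1Δscj1 against Δire1, with medians of 0.04 in both. The higher shares of 14.3% and 28.6% stood against 7.52% and 21.4% of all names, and the lower share of 14.3% in the second against 16.9%. THI4, which makes the thiazole part of thiamine, rose by 1.28 ± 0.15 and 1.86 ± 0.14, and THI2, a transcription factor of thiamine genes, by 0.60 and 0.51. SNO1, the partner of the stationary-phase gene SNZ1, was 1.88 lower in SSZ1OEΔire1Δscj1 than in Δire1 (adjusted p = 0.0305).

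HSP32, HSP33 and SNO4, near-identical genes on chromosomes XVI, XV and XIII, encode proteins of the Hsp31 family of DJ-1-like chaperones, and SNO4 carries its symbol for a likeness to the SNO genes. HSP32 measured -4.62, -4.66 and -5.03 in Δire1, -3.69 and -3.43 in SSZ1OEΔire1, and -2.63, -2.63 and -3.07 in SSZ1OEΔire1Δscj1. No array of one genotype overlapped another, and the differences from Δire1 were 1.22 ± 0.18 and 2.0 ± 0.16. HSP33 differed by 1.45 ± 0.23 and 2.15 ± 0.21 and SNO4 by 1.40 ± 0.19 and 2.18 ± 0.17, with adjusted p in limma between 0.000437 and 0.0114. In SSZ1OEΔire1 against Δire1 the call of HSP33 ended when either SSZ1OEΔire1 array was left out, and that of SNO4 without replicate 2. HSP31, the family's founding gene, on chromosome IV outside the first 8 names, differed by 0.34 and 0.27 and passed the test in neither (adjusted p = 0.299 and 0.254). Since the 3 end-proximal copies may share a probe target, they are not 3 independent measurements.

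The polyol dehydrogenase genes were higher than Δire1 in both SSZ1-overexpressing genotypes, and their differences changed in size when the slide row entered the fit. SOR1 and SOR2 encode sorbitol dehydrogenases, MAN2 a mannitol dehydrogenase and DSF1 a close relative of it. SOR1 measured -7.67, -7.83 and -8.63 in Δire1, -6.57 and -6.46 in SSZ1OEΔire1, and -6.36, -6.33 and -6.51 in SSZ1OEΔire1Δscj1. It was 1.53 ± 0.25 (adjusted p = 0.0123) and 1.64 ± 0.23 (adjusted p = 0.00239) above Δire1, and SSZ1OEΔire1Δscj1 and SSZ1OEΔire1 differed by 0.11 ± 0.25 (adjusted p = 0.796). All 4 genes were called higher against Δire1 in both, by 0.90 to 1.53 and by 1.39 to 1.69, and none between the SSZ1-overexpressing genotypes (1 at an unadjusted p under 0.05). With the slide row as a block the median over the 4 genes was 1.07 in SSZ1OEΔire1 and 2.12 in SSZ1OEΔire1Δscj1 against Δire1, and between those 2 genotypes it was 0.91, with all 4 at an unadjusted p under 0.05 and none past the adjusted test. SOR1, SOR2 and MAN2 were dim, well above background on 2 of the 3 Δire1 arrays. They thus entered the test through the SSZ1-overexpressing genotypes, in which they are high. Their p-values and calls against Δire1 therefore give no support of their own. Δire1 replicate 3, in slide row 2, read lowest for all of them, with the median over all 4 genes 0.78 below the row 1 replicates. It is the only Δire1 array in that row, so the row and this replicate cannot be told apart. Without SSZ1OEΔire1 replicate 2 none of the 4 was called in SSZ1OEΔire1 against Δire1, and 2 were called with the slide row as a block, without its replicate 1, without Δire1 replicate 1 and without Δire1 replicate 3.

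The PAU genes moved together in SSZ1OEΔire1Δscj1. They encode seripauperins, small cell wall mannoproteins that are repressed by oxygen and haem, and 18 of them were measured on as many arms. All 18 were called higher in SSZ1OEΔire1Δscj1 against Δire1, by 0.47 to 0.64 (median 0.53, adjusted p from 0.00864 to 0.0466 in limma). PAU22 measured -2.03, -2.18 and -2.26 in Δire1, -2.05 and -1.89 in SSZ1OEΔire1, and -1.54, -1.26 and -1.74 in SSZ1OEΔire1Δscj1. The last genotype lay above all other arrays, and SSZ1OEΔire1 overlapped Δire1. In SSZ1OEΔire1 against Δire1 limma called none (0 with an unadjusted p under 0.05), and the differences were 0.03 to 0.19. Against SSZ1OEΔire1 the SSZ1OEΔire1Δscj1 values were 0.34 to 0.47 higher, and none passed the adjusted test though 17 had an unadjusted p under 0.05. The family median on the 3 SSZ1OEΔire1Δscj1 arrays was 0.59, 0.76 and 0.26, and its replicate 3 read lowest.

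These PAU calls depended on single arrays in part. With the slide row as a block 6 of the 18 stayed called in SSZ1OEΔire1Δscj1 against Δire1, 5 without Δire1 replicate 3 and 5 without SSZ1OEΔire1Δscj1 replicate 1. In slide row 2 alone none was called, while all 18 were higher there, by a median of 0.68. The probes' sequences are not in the files, and a family this alike cannot be separated gene by gene, so the 18 differences may be close to 1 measurement repeated. Of 17 measured regulators and markers of the hypoxic and anaerobic response, 1 was called higher and 1 lower in SSZ1OEΔire1 against Δire1. That was 5.88% each, against 7.52% and 3.91% of all names. In SSZ1OEΔire1Δscj1 against Δire1, 1 was higher (5.88%, against 21.4%) and 2 lower (11.8%, against 16.9%). HAP1, the haem-responsive activator, was 0.63 lower in SSZ1OEΔire1 (adjusted p = 0.0112 in limma) and 0.34 lower in SSZ1OEΔire1Δscj1 (adjusted p = 0.0224). CYC7, the hypoxic form of cytochrome c, rose by 1.21 in SSZ1OEΔire1 (adjusted p = 0.0113) and measured 0.39 lower in SSZ1OEΔire1Δscj1 (adjusted p = 0.108).

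The COS genes, whose membrane proteins help to sort cargo into multivesicular bodies, were higher in SSZ1OEΔire1Δscj1 than in both other genotypes. COS1 on the left arm of chromosome XIV measured -1.55, -1.28 and -1.51 in Δire1, -1.67 and -1.33 in SSZ1OEΔire1, and -0.49, -0.35 and -0.64 in SSZ1OEΔire1Δscj1. The first 2 genotypes overlapped and the last stood clear of both. It was 0.96 ± 0.13 higher than Δire1 (adjusted p = 0.00206) and 1.0 ± 0.14 higher than SSZ1OEΔire1 (adjusted p = 0.0112). Of the 10 COS genes tested, 7 were called higher against Δire1 (COS1 to COS6 and COS8, median of all 10 0.66) and 6 against SSZ1OEΔire1 (median 0.54). In SSZ1OEΔire1 against Δire1 limma called none (1 with an unadjusted p under 0.05), and the differences ran from -0.31 to 0.33. COS7, COS9 and COS10 measured 0.16, 0.10 and 0.25 above Δire1 and did not pass, and COS12 was well above background on no array.

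Unlike the PAU and polyol genes, the COS genes were nearly level between the Δire1 arrays of the 2 slide rows. Δire1 replicate 3 in row 2 differed from the row 1 replicates by a median of 0.01, and within row 2 all 10 COS genes were higher in SSZ1OEΔire1Δscj1 than in Δire1 replicate 3, by a median of 0.64. With the row as a block 6 were called in SSZ1OEΔire1Δscj1 against Δire1. In SSZ1OEΔire1Δscj1 against SSZ1OEΔire1 none was called with the row as a block (4 at an unadjusted p under 0.05) and none without SSZ1OEΔire1 replicate 1 (8 at an unadjusted p under 0.05), and 1 and 3 were called without SSZ1OEΔire1Δscj1 replicates 1 and 2.

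The 8 YRF1 genes, which encode the helicases of the Y′ elements at the outermost positions, differed little. YRF1-6 measured 0.97, 0.64 and 0.87 in Δire1, 0.68 and 0.79 in SSZ1OEΔire1, and 0.69, 0.86 and 0.75 in SSZ1OEΔire1Δscj1. All 3 genotypes overlapped. The 8 log2 differences lay between -0.09 and -0.07 in SSZ1OEΔire1 against Δire1, between -0.06 and -0.02 in SSZ1OEΔire1Δscj1 against Δire1 and between 0.03 and 0.08 in the third comparison, and limma called none (0 at an unadjusted p under 0.05 in each). Scaled to the spike-in probes, the first 2 turned to medians of 0.02 and 0.38, where the median of all names was 0.13 and 0.43. These 8 genes lay in signal class 9, brighter than most other end-proximal genes. Their copies are near-identical, and the probes may read all Y′ elements at once.

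**Figure D4:**
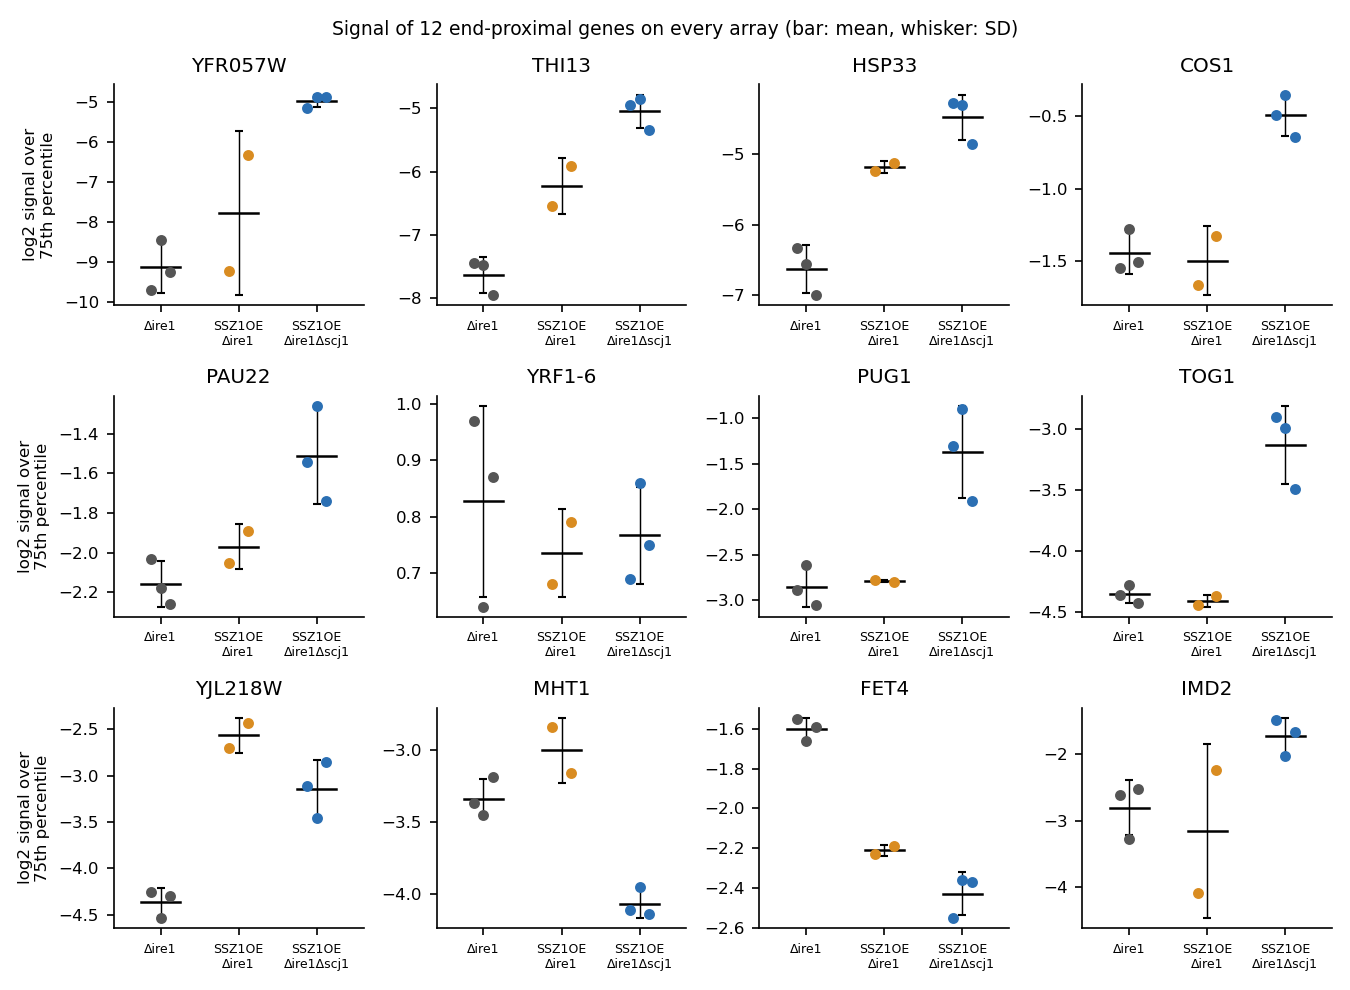
Log2 signal over the array's 75th percentile (y axis, a separate scale per panel) of 12 end-proximal genes on each array (points) in the 3 genotypes, with the group mean (bar) and SD (whisker). THI13 and HSP33 step up from Δire1 to SSZ1OEΔire1 to SSZ1OEΔire1Δscj1, COS1, PUG1 and TOG1 stand apart in the last genotype, and YFR057W and IMD2 differ widely between the 2 SSZ1OEΔire1 arrays.

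YFR057W, the outermost name on the right arm of chromosome VI and a gene often used to follow Sir-dependent silencing at a native telomere, crossed from background to a clear signal. It measured -9.71, -8.44 and -9.24 in Δire1, where no array was well above background, and -5.16, -4.88 and -4.89 in SSZ1OEΔire1Δscj1, where all 3 were. The 2 SSZ1OEΔire1 arrays read -9.23 and -6.33, the second of them well above background. SSZ1OEΔire1Δscj1 was at least 7.60-fold above Δire1 (adjusted p = 0.00409 in limma), and the call held under every alternative in which it was tested. YFR057W entered the test only through SSZ1OEΔire1Δscj1, the genotype in which it is high, so its p and these calls give no support of their own. With normexp background correction the log2 difference was 1.67, against 4.15 without it. The difference between SSZ1OEΔire1Δscj1 and SSZ1OEΔire1 was 2.80 ± 0.75 (adjusted p = 0.0523) and that between SSZ1OEΔire1 and Δire1 did not pass (adjusted p = 0.284).

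The silencing machinery was also measured at the RNA level. SIR1, which lies among the end-proximal genes on chromosome XI, measured -4.80, -4.82 and -4.78 in Δire1, -4.92 and -4.95 in SSZ1OEΔire1, and -4.85, -4.64 and -4.76 in SSZ1OEΔire1Δscj1. It did not pass in any comparison, with differences of -0.13, 0.05 and 0.19. SIR2 differed by 0.31, -0.05 and -0.37, SIR3 by 0.25, 0.21 and -0.04 and SIR4 by -0.01, -0.04 and -0.03, and none passed. Of 55 silencing and telomere factors 3 were higher and 1 lower in SSZ1OEΔire1 against Δire1, 6 and 7 in SSZ1OEΔire1Δscj1 against Δire1 and 1 and 1 in the third comparison, with medians of -0.01, -0.02 and -0.03. The shares were 5.45% and 1.82%, 10.9% and 12.7%, and 1.82% and 1.82%, against 7.52% and 3.91%, 21.4% and 16.9%, and 6.3% and 5.61% of all names. PNC1, the nicotinamidase of NAD+ salvage, rose by 0.97 in SSZ1OEΔire1 (adjusted p = 0.0112) and 0.87 in SSZ1OEΔire1Δscj1 (adjusted p = 0.00371). ASF1, a histone chaperone, was 0.51 lower in SSZ1OEΔire1Δscj1 than in Δire1 (adjusted p = 0.0087), and NPT1, of the same NAD+ salvage route as PNC1, was 0.38 lower in SSZ1OEΔire1 (adjusted p = 0.0317). ABF1, a DNA-binding factor of the silencers, was 0.70 higher in SSZ1OEΔire1 than in Δire1 (adjusted p = 0.0039) and 0.67 lower in SSZ1OEΔire1Δscj1 than in SSZ1OEΔire1 (adjusted p = 0.00949).

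The silent mating cassette gave no clear reading. HMLALPHA2 measured -0.54, 0.16 and -0.57 in Δire1, 0.04 and 0.02 in SSZ1OEΔire1, and 0.24, 0.49 and 0.12 in SSZ1OEΔire1Δscj1, a difference of 0.60 ± 0.20 between the first and the last (adjusted p = 0.0481). Δire1 replicate 2 overlapped the SSZ1OEΔire1Δscj1 arrays, and with the slide row as a block the call was lost (adjusted p = 0.0665). HMRA2 at the other cassette gave almost the same values (0.61, adjusted p = 0.0473), and HMLALPHA1 differed by 0.34 and 0.15 and did not pass. HMRA1 was 0.77 and 0.60 higher and did not pass (adjusted p = 0.0915 and 0.0714). These genes share sequence with the expressed mating-type locus and the labels give no mating type, so the cassette's own RNA cannot be told apart.

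Several transporter and drug or metal genes near the ends were higher. GEX1 and GEX2, near-identical glutathione exchangers at the outer ends of chromosomes III and XI, rose by 0.77 and 0.75 in SSZ1OEΔire1 and by 0.99 and 1.05 in SSZ1OEΔire1Δscj1. SGE1, a multidrug exporter, measured -0.64, -0.48 and -0.67 in Δire1, -0.53 and -0.46 in SSZ1OEΔire1 and 0.51, 0.40 and 0.26 in SSZ1OEΔire1Δscj1. It was therefore level in the first 2 genotypes and 0.99 ± 0.09 higher in the last (adjusted p = 0.000577). PCA1, a cadmium-exporting ATPase, was 0.82 higher than Δire1 and 0.91 higher than SSZ1OEΔire1 in SSZ1OEΔire1Δscj1, and GTT2, a glutathione transferase, 0.79 in both. The arsenic resistance regulator ARR1 and the arsenate reductase ARR2, neighbours on chromosome XVI, were 0.27 and 0.66 higher in SSZ1OEΔire1Δscj1 than in Δire1. Of 18 measured regulators and targets of the drug resistance factors Pdr1 and Pdr3, 13 were higher in SSZ1OEΔire1 than in Δire1. In SSZ1OEΔire1Δscj1, 17 were higher than in Δire1. These were 72.2% and 94.4%, against 7.52% and 21.4% of all names, and none was lower, against 3.91% and 16.9%. PDR5, the main drug exporter among them, was 2.18 and 2.73 higher.

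Some metabolic genes near the ends were higher than Δire1 in both SSZ1-overexpressing genotypes. ADH7, an alcohol dehydrogenase, was 0.83 and 0.90 above Δire1 in the 2 genotypes, SEO1, a permease, 1.13 and 1.18, and VTH1 and VTH2, relatives of the vacuolar sorting receptor Vps10, 0.45 to 0.48 and 0.54 to 0.59. FDH1, formate dehydrogenase, was 1.08 and 1.40 higher. DDI2 and DDI3, near-identical cyanamide hydratase genes, were 1.33 and 1.29 higher in SSZ1OEΔire1Δscj1 than in Δire1, and their SSZ1OEΔire1 arrays lay far apart, at -4.73 and -3.69 for DDI2. MCH2, which resembles monocarboxylate permeases, was 1.70 ± 0.30 higher in SSZ1OEΔire1Δscj1 (adjusted p = 0.00547) from a dim Δire1 signal, well above background on 1 of 3 arrays. MCH2 thus did not enter the test through Δire1, and this p gives no support of its own.

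A run on the right arm of chromosome V separated SSZ1OEΔire1Δscj1 from SSZ1OEΔire1. YER187W, YER186C, PUG1 and TOG1 lie at positions 4 to 7 and were the longest run of neighbouring higher calls against SSZ1OEΔire1. TOG1, a transcription factor of oleate utilisation, measured -4.36, -4.28 and -4.42 in Δire1, -4.44 and -4.37 in SSZ1OEΔire1, and -2.90, -2.99 and -3.49 in SSZ1OEΔire1Δscj1. The other 2 genotypes were level, and SSZ1OEΔire1Δscj1 was 1.27 ± 0.17 above SSZ1OEΔire1 (adjusted p = 0.0101) and 1.23 ± 0.15 above Δire1 (adjusted p = 0.00168). PUG1, a protoporphyrin and haem transporter, was 1.42 ± 0.27 above SSZ1OEΔire1 and 1.48 ± 0.24 above Δire1, and its 3 SSZ1OEΔire1Δscj1 arrays ranged from -1.91 to -0.90. YER187W was 1.27 and 1.18 higher in the same order. This arm had 5 genes called higher in each of the 2 comparisons, the most of any arm against SSZ1OEΔire1.

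Against Δire1 the higher calls of SSZ1OEΔire1Δscj1 fell on 31 of the 32 arms and those of SSZ1OEΔire1 on 23. The higher calls of SSZ1OEΔire1Δscj1 against SSZ1OEΔire1 fell on 18. The left arm of chromosome XV held the most in SSZ1OEΔire1Δscj1 against Δire1, 7 of its first 8 names. The longest run was on the left arm of chromosome XIV, where COS1, DDI2, SNO2, SNZ2, THI12 and AAD14 were all called higher at positions 3 to 8. The 3 middle genes of that run, SNO2, SNZ2 and THI12, also formed the longest run in SSZ1OEΔire1 against Δire1. AAD14 and AAD15, relatives of aryl-alcohol dehydrogenases, were the 2 of 5 AAD genes called in SSZ1OEΔire1Δscj1 against Δire1, at 0.46 and 0.69. The right arm of chromosome VIII was the one arm with no higher call there.

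**Figure D5:**
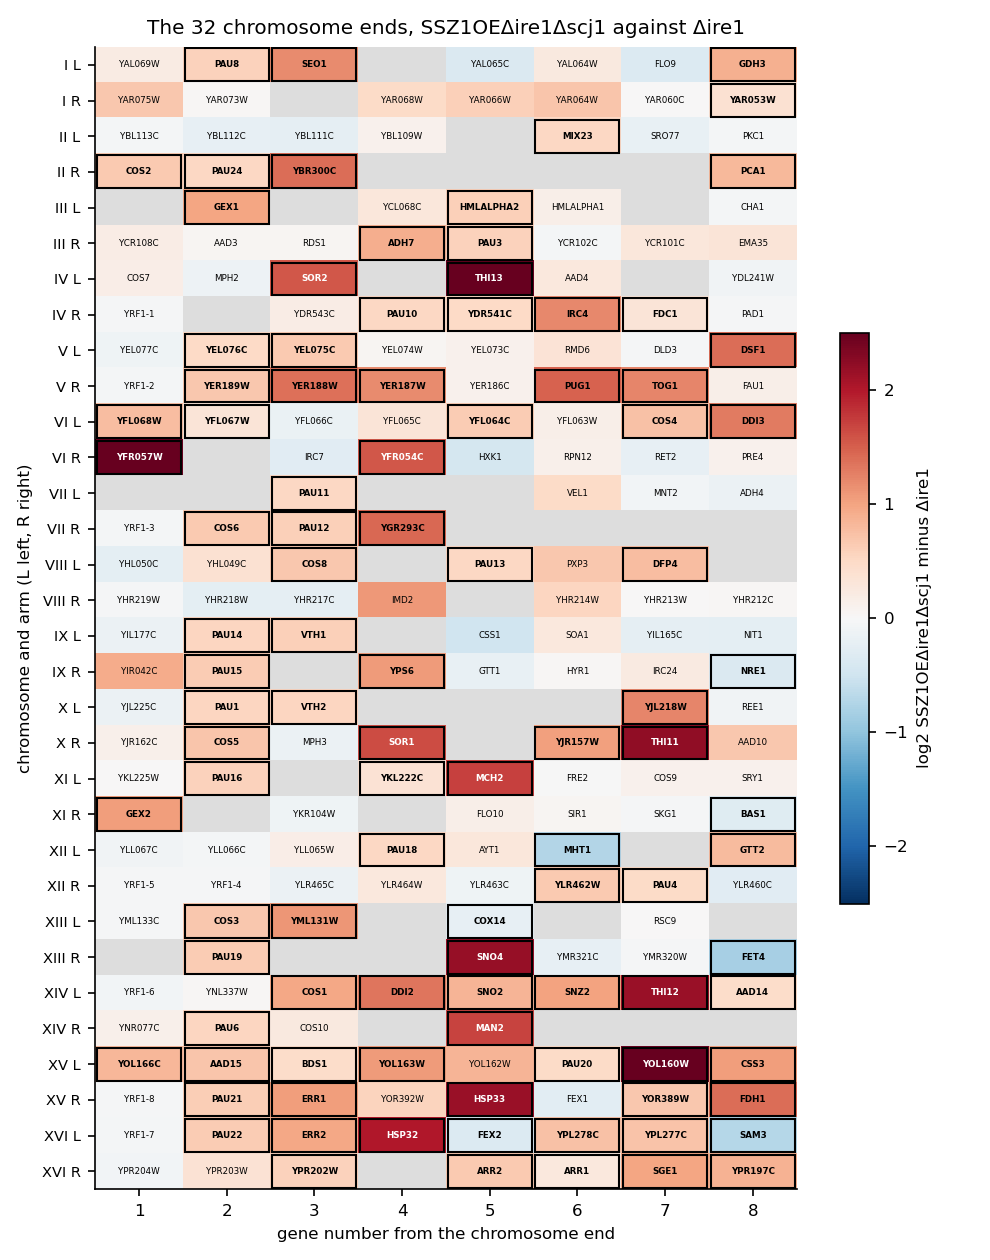
Map of the 32 chromosome arms (rows) by gene number from the end (columns, 1 outermost), coloured by the log2 difference of SSZ1OEΔire1Δscj1 minus Δire1 (capped at 2.5 in either direction), with genes that passed the test framed and in bold, and names dropped by family or not tested in grey. Framed red cells occur on 31 arms, with the run of 6 on the left arm of chromosome XIV and 7 of 8 cells on the left arm of XV, and the outermost YRF1 cells are pale.

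Of the 100 open reading frames with no gene symbol, 84 were tested, and 13 were higher in SSZ1OEΔire1, 27 in SSZ1OEΔire1Δscj1 against Δire1 and 13 in the third comparison. These were 15.5%, 32.1% and 15.5%, against 7.52%, 21.4% and 6.3% of all names. YOL160W on chromosome XV measured -7.37, -6.41 and -7.48 in Δire1, -5.39 and -4.71 in SSZ1OEΔire1, and -4.43, -4.87 and -4.49 in SSZ1OEΔire1Δscj1. It was 2.04 ± 0.35 and 2.49 ± 0.31 above Δire1 (adjusted p = 0.013 and 0.00178), and no array overlapped Δire1. On Δire1 replicate 3 its signal lay under the lowest one well above background there, -7.22. It thus entered the test through genotypes in which it is high, and these p-values give no support of their own. YJL218W on chromosome X was higher in SSZ1OEΔire1 than in Δire1 by 1.80 ± 0.18 (3.48-fold, adjusted p = 0.00344) and in SSZ1OEΔire1Δscj1 by 1.23 ± 0.16. Both of its SSZ1OEΔire1 arrays, at -2.70 and -2.43, exceeded every SSZ1OEΔire1Δscj1 array, and that difference of -0.57 did not pass (adjusted p = 0.0804).

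Several open reading frames were above background in 1 genotype only or crossed the background between genotypes, and for them a bound is given. YFR054C was at least 1.70-fold and YBR300C at least 1.87-fold higher in SSZ1OEΔire1 than in Δire1, where neither was well above background on any array. YAL065C was well above background on both SSZ1OEΔire1 arrays and on none of the other 6, at least 1.09-fold higher than Δire1 (adjusted p = 0.00344 in limma). It entered the test only through SSZ1OEΔire1, so this p gives no support of its own. YGR293C showed the same pattern of detection and its bound was under 1, and it is among the higher calls of SSZ1OEΔire1Δscj1 against Δire1 although both genotypes were below background on every array there. Among the 38 higher calls of SSZ1OEΔire1 against Δire1, 34 had both genotypes measured above background on at least 1 array, as had 90 of the 94 in SSZ1OEΔire1Δscj1 against Δire1. With such genes set to their bounds the medians were 0.06, 0.33 and 0.23. YAR060C and YHR212C, at the right ends of chromosomes I and VIII, gave almost equal values: they rose by 0.66 and 0.63 in SSZ1OEΔire1 and were 0.65 and 0.61 lower in SSZ1OEΔire1Δscj1 than there.

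The few lower genes included transporters and genes of sulfur metabolism. FET4, a low-affinity iron transporter on the right arm of chromosome XIII, measured -1.55, -1.66 and -1.59 in Δire1, -2.23 and -2.19 in SSZ1OEΔire1, and -2.55, -2.36 and -2.37 in SSZ1OEΔire1Δscj1. It was 0.61 ± 0.09 lower in SSZ1OEΔire1 (adjusted p = 0.00779) and 0.83 ± 0.08 lower in SSZ1OEΔire1Δscj1 (adjusted p = 0.000627), and no array overlapped Δire1. MHT1, a methyltransferase that makes methionine from S-methylmethionine, measured -3.37, -3.45 and -3.19 in Δire1, -2.84 and -3.16 in SSZ1OEΔire1, and -4.11, -3.95 and -4.14 in SSZ1OEΔire1Δscj1. It was 0.73 ± 0.11 below Δire1 and 1.07 ± 0.13 below SSZ1OEΔire1. SAM3, the S-adenosylmethionine permease, was 0.71 ± 0.17 and 1.02 ± 0.19 lower in the same 2 comparisons. Scaled to the spike-in probes, FET4 and MHT1 kept their direction in SSZ1OEΔire1Δscj1 against Δire1 without passing the test.

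The remaining lower calls were smaller or lay in 1 comparison. NRE1 was 0.54 lower in SSZ1OEΔire1 and 0.37 lower in SSZ1OEΔire1Δscj1, and the fluoride exporter gene FEX2, the purine and histidine activator gene BAS1 and the cytochrome oxidase assembly gene COX14 were 0.34, 0.30 and 0.21 lower in SSZ1OEΔire1Δscj1 than in Δire1. These 4 differences from Δire1 turned to between 0.05 and 0.21 higher in SSZ1OEΔire1Δscj1 when scaled to the spike-in probes, where none passed. Their calls also ended with the slide row as a block, within slide row 2 alone, without Δire1 replicate 1, without Δire1 replicate 3 and without SSZ1OEΔire1Δscj1 replicates 2 and 3. NRE1 in SSZ1OEΔire1 lost its call with the row as a block, within slide row 1 and without any one of 4 arrays. YEL073C was 0.81 lower in SSZ1OEΔire1 than in Δire1 and 0.92 higher in SSZ1OEΔire1Δscj1 than in SSZ1OEΔire1, and both calls ended with the row as a block and without SSZ1OEΔire1 replicate 1. REE1, linked to enolase regulation, went the other way, 0.60 higher in SSZ1OEΔire1 and 0.68 lower in SSZ1OEΔire1Δscj1 than there.

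Some end-proximal genes varied more between replicates than between genotypes. IMD2, an IMP dehydrogenase gene on chromosome VIII, measured -4.08 and -2.24 on the 2 SSZ1OEΔire1 arrays, against -2.62, -3.28 and -2.53 in Δire1 and -1.49, -2.03 and -1.68 in SSZ1OEΔire1Δscj1. YIR042C and YAR075W also read lower on SSZ1OEΔire1 replicate 1, at -5.07 against -3.56 and at -6.63 against -5.34. For all 3 genes the SSZ1OEΔire1Δscj1 arrays lay above the others without passing the test against either genotype. IRC7, a cysteine desulfhydrase gene, ranged from -0.70 to 0.23 in Δire1, with replicate 2 highest, and the hexokinase gene HXK1 ranged from -2.63 to -1.23 in SSZ1OEΔire1Δscj1. CSS1 and RMD6 shared the high value on Δire1 replicate 2, at -1.71 and -2.92.

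Of the 26 genes that were not tested, 18 were well above background on no array and 8 on some arrays but not on all of any genotype. They included COS12, the transporter genes VBA3 and VBA5, the drug transporter gene PDR18, the arsenite exporter gene ARR3 and ERR3, and no value is given for them.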

How the data were processed

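RNA was hybridised to 8 one-colour (Cy3) Agilent arrays of 1 slide, and the authors deposited the intensity of each spot; the submitters' processing notes name Agilent Feature Extraction 10.7.1.1 as the software. The authors also deposited a value table on the log2 scale, whose columns followed the log2 scanner signal of the same arrays; it served as an alternative. One scanner table, that of SSZ1OEΔire1Δscj1 replicate 3, had been saved with 3 significant digits.

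For the 61657 non-control spots, log2 was taken per spot and the spots of a probe averaged. Outlier-marked spots were left out unless all spots of the probe were marked. The value at the 75th percentile of all non-control probes was then subtracted on each array. The brightest of several probes stood for a systematic name (39 names). A probe counted as well above background where over 0.5 of its spots were. limma 3.58.1 in R 4.3.3 fitted 3 group means over 6240 names (5 residual degrees of freedom, eBayes, two-sided, Benjamini-Hochberg adjusted p under 0.05 over all names), and was tested on simulated data. A bound ("at least") sets the measured group against the higher of the dim probe's own signal and the lowest signal well above background. The number of arrays limits the precision. The same-number correlations of deviations were -0.04, -0.02 and 0.21 between Δire1 and SSZ1OEΔire1Δscj1, 0.15 and 0.11 between Δire1 and SSZ1OEΔire1, and 0.11 and 0 between the other pair. Since not every one was above 0.1, replicate numbers were not taken to pair arrays.

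Symbols came from the RefSeq R64 table, whose build differs from that of the array design, so no coordinates are given. Probe sequences were not used here, and genes of near-identical families are uncertain one by one. The genes, families and lists were chosen with earlier results of these data known. Genes named were, per comparison, up to 10 called genes with the largest difference in each direction, the extremes of each family, the 3 most variable genes per genotype, the longest runs, the silencing and targeted genes and the leading genes of each list; further genes were named for their role after their values were seen. Alternatives covered scaling, background, filter, probes, variance model, slide row, replicate number, left-out arrays, names per arm and families.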

Additional observations from a re-analysis of the deposited data

How the results depend on the processing

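The counts of end-proximal genes called (higher and lower together) were 41, 101 and 39 in comparison 1 (SSZ1OEΔire1 against Δire1), comparison 2 (SSZ1OEΔire1Δscj1 against Δire1) and comparison 3 (SSZ1OEΔire1Δscj1 against SSZ1OEΔire1). In comparison 1 they were 19 with spike-in scaling, 25 with the slide row as a block, 9 within slide row 1, 25 with the replicate block and 15 with 4 names per arm; in comparison 2 they were 61 with the row as a block, 62 within slide row 2 and 51 with 4 names per arm. In comparison 3 they were 20 with spike-in scaling, 0 with the row as a block and 14 with 4 names per arm. Fewer names were counted at 4 per arm; the other causes were not tested. Leaving out 1 array gave 3 to 47 in comparison 1, the lowest without SSZ1OEΔire1 replicate 2, at least 72 in comparison 2, and 0 to 51 in comparison 3, the lowest without SSZ1OEΔire1 replicate 1.

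The medians under left-out arrays were 0.03 to 0.12, 0.32 to 0.39 and 0.17 to 0.29. That of SSZ1OEΔire1Δscj1 against Δire1 was 0.16 with quantile normalization, 0.18 with normexp, 0.76 with spike-in scaling and 0.49 with 4 names per arm, and that of comparison 3 was 0.54 with spike-in scaling. The split of calls in SSZ1OEΔire1 against Δire1 was 29 higher and 14 lower with quantile normalization (346 and 376 over all names), and in comparison 3 it was 29 and 13 with normexp. With the replicate block the counts of comparisons 2 and 3 were 101 and 45. Without the near-identical families 161 genes were left, and 19.9%, 37.9% and 13% of them were called higher in the 3 comparisons. Their medians were 0.04, 0.27 and 0.17. Spike-in scaling turned NRE1 (0.05), BAS1 (0.12), COX14 (0.21) and FEX2 (0.07) in SSZ1OEΔire1Δscj1 against Δire1. Of 47 differences of named genes, 13 were called under every alternative run and 31 under every one that keeps all arrays and no block. Groups of 2 and 3 arrays and dim probes limit the precision.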
